A study of Mus musculus with 6 samples.

Results

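The cytosolic ribosomal protein genes were followed in double negative T (DNT) cells, which lack CD4 and CD8, kept with or without the cytokine IL-33. Protein-coding genes were taken whose symbol begins with Rpl or Rps and a digit, together with Rpsa, Rplp0, Rplp1 and Rplp2. Symbols containing -ps and the Rps6k kinases were left out. This gave 85 of the 26128 genes in the count table, 51 named for the large and 34 for the small subunit of the ribosome. Rps19bp1 and Rpl7l1 pass this rule by their symbols although they are not ribosome subunits, and they were kept and are reported apart where they matter. The samples were 6 RNA-seq libraries of DNT cells converted in culture, with mature dendritic cells of DBA/2 mice and IL-2, from T cells of adult wild type C57BL/6 mice. The starting cells were CD4+CD25-, taken from spleen by the labels and from spleen and lymph nodes by the study's methods. The cells were sorted as CD3+NK1.1-CD4-CD8- and stimulated with anti-CD3/CD28 beads for 48 h, in 3 control libraries without IL-33 and 3 libraries with IL-33 at 50 ng/ml. All 6 libraries therefore come from activated cells that had been converted in vitro. No source used here says whether the 3 libraries of a group came from separate mice or cultures, so p-values measure only the spread between these libraries, which may be technical.

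Each ribosome has a small subunit, which reads the mRNA, and a large subunit, which joins amino acids and binds the translation factors through a flexible stalk. Its proteins are made in near equal amounts from genes scattered over the genome, and many of their mRNAs begin with a run of pyrimidines (a terminal oligopyrimidine, or TOP, start) through which the TOR pathway controls their translation. Activated T cells are known for building many new ribosomes as they grow and divide. Counts of mRNA do not measure translation or ribosome number.

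Library totals ran from 20256342 to 22336050 counts. The T cell genes Cd3d, Cd3e, Cd3g, Cd247, Lck and Thy1 summed to between 2897 and 3051 CPM (counts of a gene scaled to the same depth in each library) in every library. Of the genes of the sorting gate, Cd4 was at 0.934 CPM in control cells and 0.373 CPM with IL-33, but Cd8a was at 545 and 400.2 CPM although cells with CD8 protein had been sorted away. Cd8b1, the partner chain of Cd8a, rose from 9.68 to 16.3 CPM (log2 fold change 0.75, edgeR adjusted p = 6.16e-08), and Klrb1c, which encodes NK1.1, was at 33.5 and 25.6 CPM. Of 8 dendritic and myeloid markers only Itgax and Itgam passed the filter on low counts, and their list summed to 56.2 to 59.0 CPM in control libraries against 29.6 to 33.6 CPM with IL-33. These 2 genes moved in opposite directions, Itgax from 54.6 to 26.0 CPM (log2 fold change -1.07) and Itgam from 2.61 to 4.83 CPM (0.88, edgeR adjusted p = 1.28e-04). The defining markers Flt3, Lyz2, Csf1r and Adgre1 had at most 13 counts in any library. Whether these shifts in gate and myeloid genes bear on the values below was not tested.

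IL-33 went with a small rise in the share of all counts that fell on the ribosomal protein genes. The share was 5.11%, 5.32% and 5.29% in control libraries 1 to 3 and 5.49%, 5.53% and 5.36% in IL-33 libraries 1 to 3, or 5.24% ± 0.113 against 5.46% ± 0.0925 (SD, n = 3). All 3 IL-33 libraries lay above all 3 control libraries, with a gap between the nearest pair of libraries that was smaller than the spread within either group. Counting error was far smaller than this spread, since the widest Wilson 95% interval was ± 0.00978 percentage points. The difference of 0.218 percentage points is 4.16% of the control share. Rps2 alone supplied 0.0464 points of it, or 21.2%. Without Rps2 the groups overlapped, at 4.97%, 5.19% and 5.14% in control libraries and 5.31%, 5.34% and 5.17% with IL-33. Genes of the mitochondrial genome moved the same way, from 1.91% ± 0.0466 to 2.10% ± 0.0177 of counts (n = 3), and the ribosomal protein share over the remaining counts still did not overlap between groups (5.21% to 5.43% against 5.47% to 5.65%). No test was run on these summed values.

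Large subunit genes took 2.95% ± 0.0677 of counts in control cells and 3.09% ± 0.0534 with IL-33, and the groups did not overlap. Small subunit genes took 2.29% ± 0.0457 and 2.37% ± 0.0391, and here the lowest IL-33 library fell just below the highest control library. The ratio of large to small subunit counts was 1.280, 1.285 and 1.291 in control libraries and 1.303, 1.299 and 1.298 with IL-33, a ratio of means of 1.01. Without Rps2 in the denominator it was 1.37 ± 0.00663 against 1.41 ± 0.00295 (SD, n = 3). When the ratio was instead taken between the median members in counts per kb of exon, the groups overlapped, at 1.14 ± 0.00663 and 1.14 ± 0.0217.

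**Figure D1:**
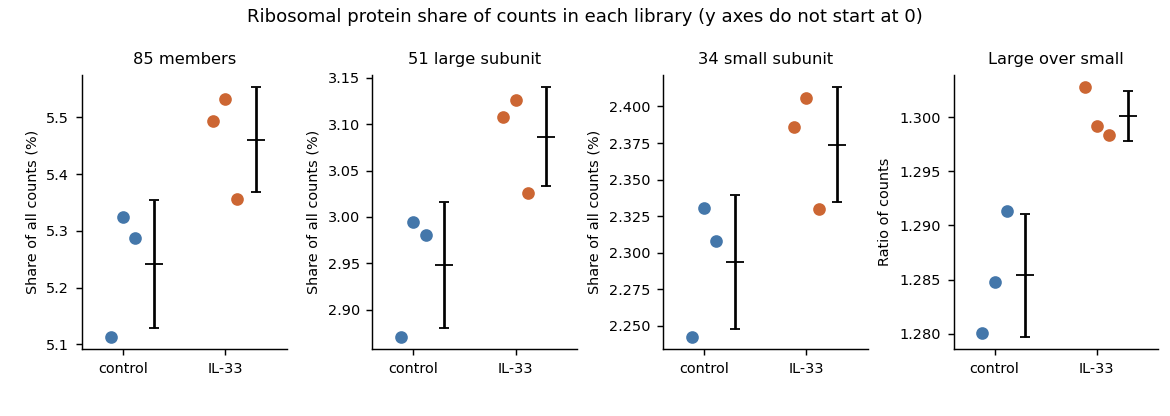
Share of all counts (percent, y axis) on the 85 members and on the large and small subunit members, and the ratio of large to small subunit counts, in the 3 control (blue) and 3 IL-33 (orange) libraries. Points are libraries, and black marks are group means with SD. The y axes do not start at 0; the groups are apart in the total, the large subunit and the ratio, and overlap in the small subunit.

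Per gene, the changes were small and mostly upward. Of the 85 members, 84 passed the filter on low counts. At an adjusted p under 0.05 (edgeR, quasi-likelihood, Benjamini-Hochberg over the 14671 genes that passed), 27 members were higher with IL-33, 2 were lower and 55 were not called. Over all genes tested, 13.6% were called higher and 13.9% lower, or 27.5% in all. The median log2 fold change of the members was 0.04, beside a median of -0.00063 for all genes tested. The fitted change was above 0 in 62 members and below 0 in 22, beside 49.9% of all genes tested above 0. Among the 2272 genes of at least 100 CPM the median was 0.01, with 1205 above 0 and an upper quartile of 0.101. The 72 members at that level had a median of 0.04, with 56 above 0 and an upper quartile of 0.0993. Such highly expressed genes have small errors, and among the 2272 genes of at least 100 CPM 51.6% were called, against 38.9% of the 72 members at that level. No member passed both thresholds of the study, an adjusted p under 0.05 and a 1.5-fold change either way, by edgeR (also 0 at an unadjusted p under 0.05), DESeq2 or limma-voom, a pair that 4.87% of all genes passed. In 26 members all IL-33 libraries lay above all control libraries and in 1, Rps3a1, all lay below, against 19.4% and 19.5% of all genes. Among the 2272 genes of at least 100 CPM, 761 lay above and 646 below. Of the 72 members at that level, 25 lay above and 1 below.

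By subunit, 17 of 50 large subunit members tested were higher, with a median log2 fold change of 0.06. None was lower by edgeR, DESeq2 or limma-voom, and 1 (Rpl31) at an unadjusted p under 0.05 by edgeR. In the small subunit, 10 of 34 were higher and 2 lower, with a median of 0.03. Of the 29 calls, 15 were also made in each of the 15 other settings, 11 of the large and 4 of the small subunit. Without control replicate 1 the median of all members was 0.02, and without IL-33 replicate 3 it was 0.07. With 1 library left out in turn, the lowest median of the large subunit members was 0.03, without control replicate 1, and the highest was 0.09, when control replicate 2 was dropped. For the small subunit members the same step gave 0.0035 without control replicate 1, 0.02 without IL-33 replicate 2 and 0.05 when IL-33 replicate 3 was dropped. Control replicate 1 and IL-33 replicate 3 were the lowest of their groups over the members, with medians of -0.05 and 0.01 on the log2 scale relative to each member's mean over the control libraries. The medians of control replicates 2 and 3 were 0.03 and 0.02, both above IL-33 replicate 3. IL-33 replicates 1 and 2 were at 0.06 and 0.07, so by this median the groups overlapped.

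**Figure D2:**
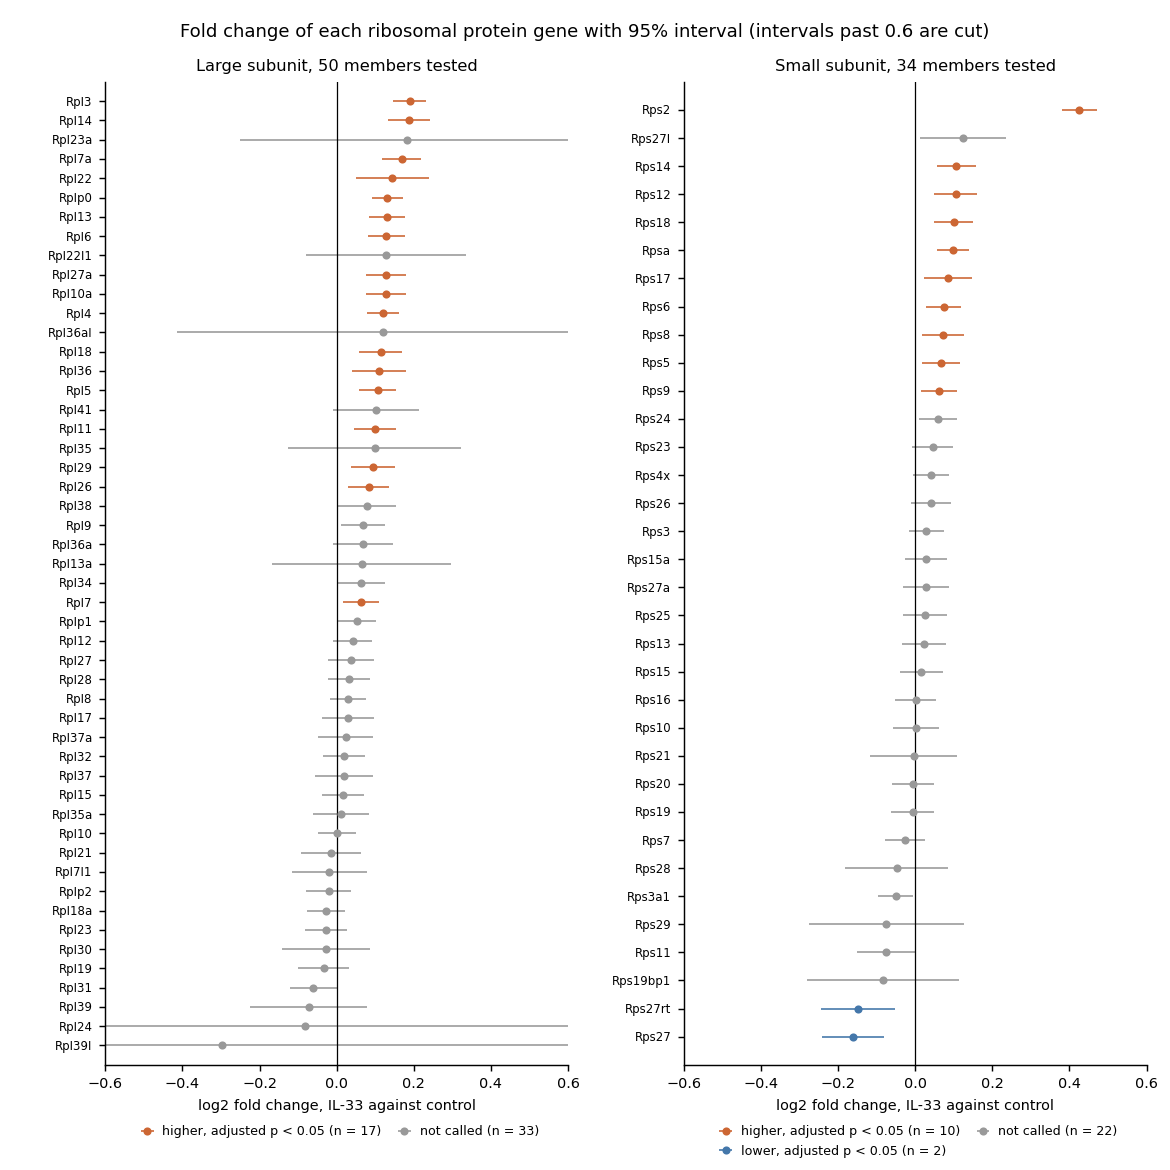
Log2 fold change of IL-33 against control (x axis) for the 50 large subunit (left) and 34 small subunit (right) members tested, ordered by change, with 95% intervals from edgeR. Orange marks members called higher, blue those called lower and grey those not called. Rps2 stands alone at 0.43, the other rises end at 0.19, and the wide intervals, cut at the frame, belong to members with few counts.

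Rps2 (ENSMUSG00000044533, GRCm38 chr17:24718116-24721929, plus strand), a small subunit protein at the channel where mRNA enters, had the largest change among the members. Its level was 1400.0, 1391 and 1441 CPM in control libraries 1 to 3 and 1900.3, 1949 and 1835 CPM in IL-33 libraries 1 to 3. Every IL-33 library exceeded every control library by more than the whole spread of either group. The log2 fold change was 0.43 ± 0.022 (SE, 95% interval 0.38 to 0.47, edgeR adjusted p = 1.59e-31), a rise of 34.3%. Rps2 took 2.71% ± 0.0734 of the counts on members in control cells and 3.44% ± 0.0459 with IL-33 (n = 3). Its fold change ranged from 0.41 to 0.45 in the other settings, and it was called in each of them.

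The next largest called rises were in large subunit genes. Rpl3, a protein close to the site of peptide bond formation, was at 1668, 1728 and 1744 CPM in control libraries and 1935, 2000 and 1926 CPM with IL-33, a log2 fold change of 0.19 ± 0.022 (SE, edgeR adjusted p = 3.11e-12). Rpl14 rose from 484 ± 17.2 to 551 ± 9.89 CPM (SD, n = 3; log2 fold change 0.19, edgeR adjusted p = 2.24e-08). Rpl7a rose from a mean of 696 to 782 CPM, Rpl13 from 1339 to 1465 CPM and Rpl6 from 997 to 1091 CPM, with log2 fold changes of 0.17 ± 0.026, 0.13 ± 0.023 and 0.13 ± 0.024 (SE). These 5 genes rose in each of the other settings as well. Rpl22, whose loss is known to block the development of alpha-beta T cells, rose by 0.14 ± 0.045 on the log2 scale (edgeR adjusted p = 0.0200). Its libraries read 203, 230.4 and 230.4 CPM in control cells and 254, 249.6 and 231 CPM with IL-33, so that the lowest IL-33 library lay just above the highest control library. Its call was lost when control replicate 1 (adjusted p = 0.0689) or IL-33 replicate 1 (0.0821) or 2 (0.0790) was left out.

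The 3 proteins of the stalk did not move alike. Rplp0, its base, rose from 2715 ± 65.5 to 2973 ± 18.5 CPM (SD, n = 3; log2 fold change 0.13, edgeR adjusted p = 5.40e-08). Rplp1 was at 843, 894 and 888 CPM in control libraries and 915, 933 and 874 CPM with IL-33, and its change of 0.05 was not called (adjusted p = 0.122), although it was called without IL-33 replicate 3 (0.0265). Rplp2 was at 429 ± 19.7 and 423 ± 8.55 CPM (log2 fold change -0.02, adjusted p = 0.652). The differences between the 3 changes were not tested.

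Rpl5 and Rpl11 bind the 5S ribosomal RNA together and are known for restraining Mdm2 when ribosome assembly fails. Rpl5 rose from 1044 ± 23.4 to 1123 ± 20.6 CPM (log2 fold change 0.11, edgeR adjusted p = 2.03e-04), and Rpl11 from 640 ± 28.3 to 685 ± 11.5 CPM (0.10, adjusted p = 0.00251). For Rpl11 the call was lost without control replicate 1 (adjusted p = 0.0817). Rps6, the substrate of the S6 kinases, was at 1350, 1348 and 1364 CPM in control libraries and 1447, 1447 and 1383 CPM with IL-33, a log2 fold change of 0.07 (adjusted p = 0.00797). That call was lost without IL-33 replicate 1 (0.0673) or 2 (0.0655). Rpsa, also known as the laminin receptor precursor, rose from 2013 ± 42.7 to 2155 ± 30.0 CPM (0.10, adjusted p = 1.04e-04). Rps27a, which is made as a fusion with ubiquitin, was at 376 ± 16.6 and 383 ± 9.80 CPM and was not called (0.03, adjusted p = 0.555). Rps19bp1, which is not a subunit, was at 16.3 ± 1.04 and 15.4 ± 1.58 CPM (-0.08, adjusted p = 0.582).

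Only Rps27 and its copy Rps27rt were called lower. Rps27 was at 158, 185 and 173 CPM in control libraries and 158, 152 and 151 CPM with IL-33, a log2 fold change of -0.16 ± 0.040 (SE, edgeR adjusted p = 0.00123). Rps27rt was at 69.5, 79.5 and 76.2 CPM and then 69.6, 70.6 and 63.0 CPM (-0.15 ± 0.048, adjusted p = 0.0137). In both genes control replicate 1 lay among the IL-33 libraries, and the control libraries spread widely. The call of Rps27 was lost without control replicate 2 (adjusted p = 0.0636). That of Rps27rt was lost when control replicate 2 (0.154) or 3 (0.0518) or IL-33 replicate 3 (0.196) was left out. The coding sequences of the 2 genes are identical over 252 bases, and 90.3% of the 75-base windows of Rps27rt transcripts also occur in another gene, so the 2 calls are not separate observations. Rps3a1 lay below control in every IL-33 library (1317, 1379 and 1340 CPM against 1298, 1304 and 1296 CPM), but its change of -0.05 was not called (adjusted p = 0.0906), while it was called without control replicate 1 (0.0302).

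**Figure D3:**
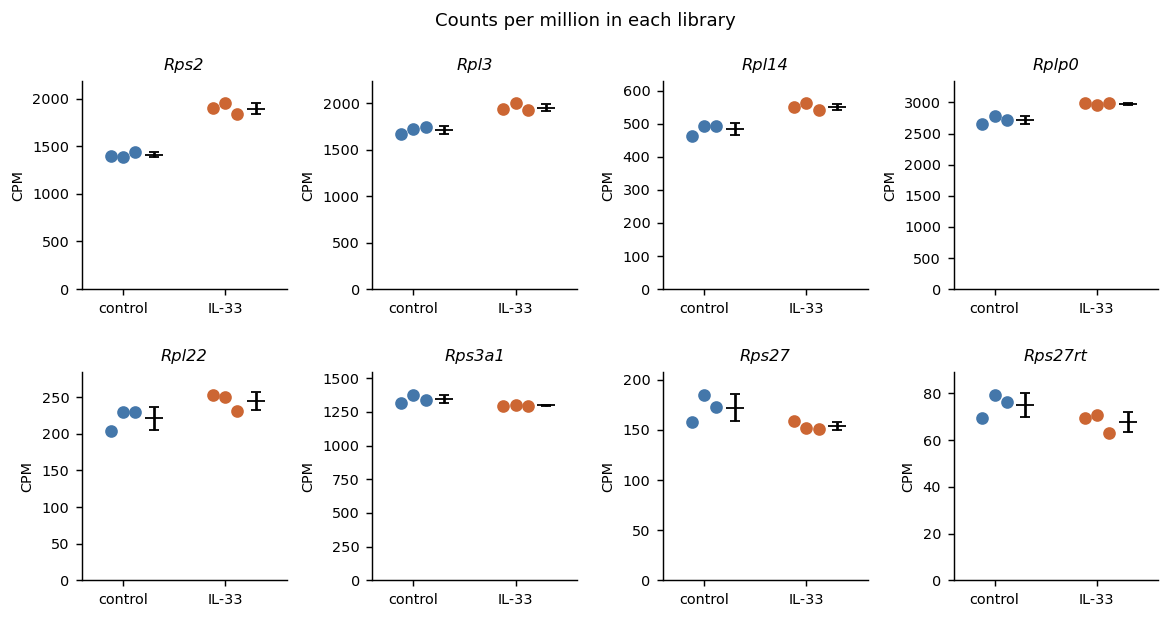
Depth-scaled counts in CPM (y axis, from 0) of 8 members in the 3 control (blue) and 3 IL-33 (orange) libraries; black marks are means with SD. Rps2 is apart by far more than its spread, Rpl3, Rpl14 and Rplp0 are apart by less, Rpl22 touches, and Rps27 and Rps27rt overlap because control replicate 1 lies with the IL-33 libraries.

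The starts of transcription are printed for Rps2, for called members with a TOP start at the annotated base (Rps6, Rps18, Rpl14 and the falling pair) and for 2 such members that were not called. Each window runs from 15 bases before to 15 bases from the start, 5′ to 3′, as RefSeq annotates it on GRCm38.p6, and capitals mark a pyrimidine run that begins with C at the start base and holds at least 5 bases.
Rps2 (chr17:24720048-24720077, plus strand): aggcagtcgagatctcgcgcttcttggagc
Rps6 (chr4:86857353-86857382, minus strand): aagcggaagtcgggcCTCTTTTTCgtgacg
Rps18 (chr17:33955651-33955680, minus strand): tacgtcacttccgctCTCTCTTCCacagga
Rpl14 (chr9:120571502-120571531, plus strand): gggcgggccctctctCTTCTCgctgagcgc
Rps27 (chr3:90213634-90213663, minus strand): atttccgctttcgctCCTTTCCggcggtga
Rps27rt (chr9:114982725-114982754, minus strand): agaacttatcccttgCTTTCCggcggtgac
Rps15a (chr7:118116133-118116162, minus strand): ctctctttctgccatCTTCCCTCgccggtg
Rpl28 (chr7:4792950-4792979, plus strand): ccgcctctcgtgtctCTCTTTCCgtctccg
The sequences matched 65 of the 85 members by symbol. Such a run lay at an annotated start of 14 of the 65 (21.5%) and of 813 of 27025 genes in the same RefSeq table (3.01%). This count leaves out runs that begin a few bases away from the annotated base. A looser search, for a longer pyrimidine run anywhere near the start, found 1 in 32 of the 65 (49.2%) and in 20.9% of all genes. The run at the start base itself was found in 3 of 19 matched members called higher, in both called lower and in 9 of 43 not called. Rps2 has no such run at its annotated base. Rps27 and Rps27rt share the bases that follow the run, with Rps27 beginning 1 base earlier.

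Among 4 motifs searched on either strand in the 300 bases around the start, CCGGAAG, the core that ETS factors bind, was found in 26 of 65 members (40%) and 9.93% of all genes of the table. AAGATGG, the core of the YY1 motif, was found in 15.4% and 7.28%, CACGTG, an E-box, in 9.23% and 8.09%, and TATAAA in 10.8% and 15.7%. CCGGAAG was in 8 of 19 members called higher and 18 of 43 not called, shares of 42.1% and 41.9%. Rps2 holds both CCGGAAG and TATAAA.

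The levels of the members, in CPM per kb of the principal transcript of GENCODE M21 and averaged over the 6 libraries, had a median of 578 with quartiles of 313 and 992. Rplp0 was the highest at 2094, followed by Rpl13 at 1797, Rplp1 at 1786, Rps15 at 1706, Rpl41 at 1587 and Rps6 at 1583; the ranges of Rpl13, Rplp1 and Rps15 over the libraries overlap. Next came Rps18 at 1551, Rps2 at 1511, Rpl4 at 1486, Rpl3 at 1357 and Rps3a1 at 1353. The median was 529 in the large and 676 in the small subunit. The order depends on the length: over the union of all annotated exons Rplp1 was first (1786), Rplp0 second (1714) and Rpl13 was at 540. At the low end Rpl13a was at 10.8, Rpl36al at 1.45, Rpl24 at 0.615 and Rpl39l at 0.605 CPM per kb, and 12 members in all were under 100. In Rpl24 only 5 to 12 counts were found in any library. Its transcripts share 80.9% of their 75-base windows with another gene, so its low value cannot be told apart from reads that were not assigned. The same holds for Rpl13a and Rpl36al, of whose exon bases 29.4% and 24.5% also belong to another gene on the same strand (Gm45713 and Gm49383). For Rpl24 that share was 47.0%, with Gm28037. None of these other genes is in the count table, so whether the annotation used for counting held them is not known. Windows were shared for 81.7% of Rpl23a and 89.2% of Rpl35, which had 376 to 584 and 457 to 686 counts. Some genes that share these windows held more counts, such as Gm3362 for Rpl23a (2386 to 3081) and Gm2000 for Rpl35 (593 to 784), and others held fewer. On the other strand, 59.7% of the exon bases of Rpl23a lie in Tlcd1 and 66.2% of those of Rpl35 in Wdr38. Abundant members shared as many, with 84.1% in Rps6, 84.1% in Rpl5, 79.6% in Rpl13 and 77.4% in Rpl7a. There the sharing genes held fewer counts than the member, as with Rps6-ps4 (3104 to 3786) beside Rps6 (27402 to 31114). Over the 84 members Spearman's rho between level per kb of exon and shared windows was 0.16. Whether reads of Rpl23a or Rpl35 were assigned to other genes was not tested. Rpl23a had a log2 fold change of 0.18 ± 0.18 (SE) that was not called (edgeR adjusted p = 0.531), and it was called only without IL-33 replicate 3 (0.33, adjusted p = 0.00447). Rpl39l shared none, and had 3 to 17 counts. Its log2 fold change of -0.30 ± 0.51 (SE) was the lowest among the members and was not called (adjusted p = 0.722).

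**Figure D4:**
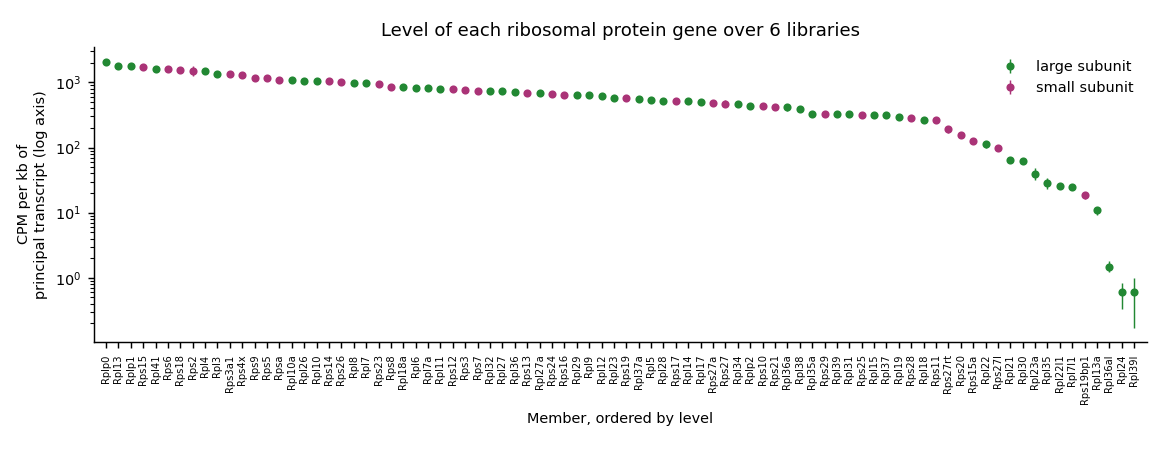
Level of the 84 members tested in CPM per kb of principal transcript (y axis, log scale), ordered from highest to lowest. Points are means over the 6 libraries and bars run from the lowest to the highest library; green is the large and purple the small subunit. Most members lie between 100 and 2094, and a tail of mostly large subunit members falls to 0.605.

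Paralogs were at lower levels per length than their partners, in CPM per kb of principal transcript 25.2 for Rpl22l1 beside 114 for Rpl22, 98.4 for Rps27l beside 472 for Rps27, 24.5 for Rpl7l1 beside 992 for Rpl7, and 0.605 for Rpl39l beside 326 for Rpl39. Rpl22l1, the paralog of Rpl22, was at 13.3 ± 0.757 and 14.5 ± 0.562 CPM (log2 fold change 0.13, adjusted p = 0.401) and has 68.2% identity with it in coding sequence. Rps27l, 61.0% identical with Rps27, was at 47.0 ± 1.21 and 51.2 ± 1.72 CPM, above control in every IL-33 library but not called (0.12, adjusted p = 0.0914). Rpl36al was at 1.77 and 1.92 CPM in control and IL-33 cells and Rpl36a at 196 and 205 CPM, and neither was called. Rpl39 was at 204 and 194 CPM (-0.07, adjusted p = 0.490), and was called lower without control replicate 1 (-0.15, 8.09e-04). Rpl7 was called higher (0.06, adjusted p = 0.0383), a call lost when control replicate 1 (0.0786) or 2 (0.109) or IL-33 replicate 2 (0.291) or 3 (0.0720) was left out, while Rpl7l1 was at 64.3 and 63.4 CPM (-0.02, adjusted p = 0.814). Rpl10 (0.00053) and Rps4x (0.04) were not called, and Rps4l, a copy of Rps4x, was at 3.01 and 2.75 CPM. Rpl3l, known from striated muscle, had 5 counts in each control library and 3, 6 and 0 counts with IL-33 and was not tested. Its 0 allows up to 3 counts, or 0.134 CPM, at this depth.

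Copies of the members serve as a second look at the same sequences, with the limit that reads can be shared between a copy and its parent. The table holds 154 pseudogenes and -ps symbols of ribosomal protein form, which took 0.245% ± 0.00606 of counts in control cells and 0.254% ± 0.00358 with IL-33, and 86 were tested. Of these, 8 were called higher by edgeR and none lower (4 at an unadjusted p under 0.05, and 0 by DESeq2 and by limma-voom). The calls made up 9.30% of the copies tested, beside 13.6% of all genes called higher and 13.9% called lower. Copies of Rps2 rose with it: Rps2-ps10 was at 18.2 to 20.1 CPM in control libraries and at 26.0 to 26.6 CPM with IL-33 (log2 fold change 0.44), and Rps2-ps6 and Rps2-ps13 changed by 0.47 and 0.54. Rpl3-ps1 rose by 0.41 ± 0.038 and its parent by 0.19 ± 0.022, and Rpl14-ps1 by 0.27 ± 0.032 and its parent by 0.19 ± 0.028 (SE). Rpl10a-ps1 (0.17), Rpl6l (0.14) and Rpl30-ps2 (2.25, at 0.0984 to 1.49 CPM) made up the rest of the calls. Over the 32 copies of at least 10 CPM with a tested parent, Spearman's rho between the change of a copy and of its parent was 0.80, a description across genes that share reads and libraries. Over all 80 it was 0.39.

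**Figure D5:**
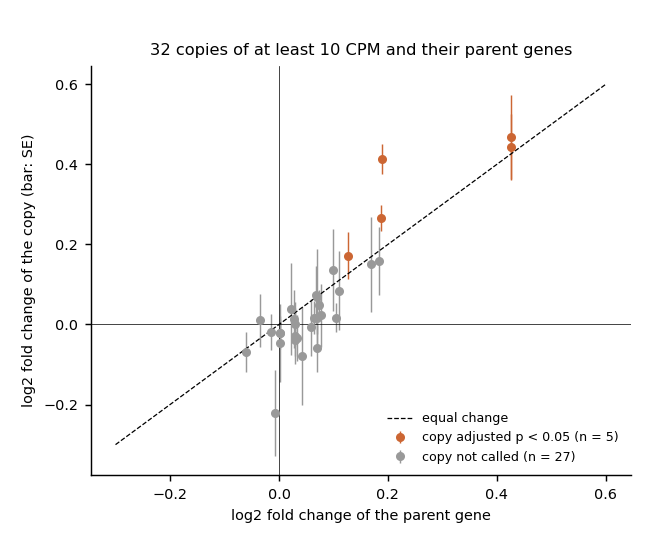
Log2 fold change of IL-33 against control for 32 copies of at least 10 CPM (y axis, with SE) against that of the parent gene (x axis). Orange marks copies called with adjusted p under 0.05 and the dashed line is equal change; the copies of Rps2 lie by the line at the upper right, and those of Rpl3 and Rpl14 above it.

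Across the 84 members, those at higher levels had larger fold changes (Spearman's rho 0.37 with mean CPM, and 0.47 over the 72 of at least 100 CPM). The fold change had a rho of 0.20 with exon length and 0.23 with the share of 75-base windows found in another gene. These are descriptions over genes that share the same 6 libraries. The relation with level was not computed over all genes tested, whose median change was -0.00063, beside 0.01 for those of at least 100 CPM.

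Other parts of the translation machinery moved in both directions. Of 7 elongation factors 3 were called higher, Eef2, the factor that moves the ribosome along the mRNA (4943 to 5622 CPM, log2 fold change 0.19), Eef1b2 (0.15) and Eef1a1, which brings aminoacyl-tRNA (0.06), and none was called lower (0 also at an unadjusted p under 0.05, by DESeq2 and by limma-voom). Of 35 initiation factors 12 were higher, with the largest changes in Eif3j1 (0.34), Eif3i (0.27) and Eif2b2 (0.20), and 5 were lower, Eif4g1, the scaffold of the cap complex (-0.18), Eif3b, Eif4g2, Eif4g3 and Pabpc1. Of 12 other genes in the table that are listed for a TOP start, 6 were higher and 1 lower. Vim, which encodes the filament protein vimentin, went from 334 to 547 CPM (0.71, edgeR adjusted p = 1.69e-28) and was the only gene of the translation lists past both thresholds. Npm1, a nucleolar chaperone of ribosome assembly, rose by 0.34 and Btf3 by 0.21, while Tpt1 fell (-0.13). Among 15 genes of the TOR pathway and translation repressors 3 were higher, Eef2k, the kinase that inhibits Eef2 (0.31), Eif4ebp1 (0.23) and Rictor (0.22). The TOR activator Rheb (-0.24), Eif4ebp2 (-0.13), Larp1, which binds TOP mRNAs (-0.12), and Pdcd4 (-0.10) were lower. Of the 9 Rps6k kinases tested only Rps6ka1 was called (0.23). The background for these counts is the same 27.5% of genes called, or 51.6% among genes of at least 100 CPM, a level that many of these factors reach.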

How the data were processed

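Raw counts per gene for 6 libraries, 3 without and 3 with IL-33, were analysed as the authors deposited them. The deposited table also holds 1 column of signal, the mean over libraries of counts divided by size factors, which was used only to check the columns, and the authors' own fold changes and p-values, which were not used. The submitters' processing notes name Bowtie 0.12.2 and the genome build mm8. For the counting program, the annotation and the use of strand, nothing is given in the sources used here. The library kit is named differently in the labels than in the paper. Reads of near-identical copies may therefore have been split or dropped. Gene symbols, types, exon lengths and overlaps came from GENCODE M21 (GRCm38), which matched 26086 IDs, and start sequences from RefSeq. Genes were filtered with filterByExpr of edgeR 4.0.16 in R 4.3.3 (minimum count 10, minimum total 15), leaving 14671, scaled by TMM (factors of 0.993 to 1.01) and compared with the robust quasi-likelihood test with no covariate. CPM of tested genes use TMM-scaled totals. CPM summed over a gene list use library totals alone. Shares are percent of all counts of a library. Wilson intervals on shares cover counting error only. Intervals on fold changes come from the edgeR fit and include the spread between libraries. The script was tested on simulated counts with known fold changes.

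The members, gene lists and tests were chosen with earlier results of these data known. The named members are the 8 highest and 4 lowest in CPM per kb of the union of annotated exons. They also include the 8 largest rises and the falls with adjusted p under 0.05. Paralog pairs, the stalk, Rpl5, Rpl11, Rps6, Rpsa, Rps27a and Rps19bp1 were named as well. From the other lists came those past both thresholds or with the 3 largest called changes. A few others (Rpl23a, Rpl35, copies, the other called TOR genes and initiation factors) were named after their values were seen. The alternatives were DESeq2 1.42.0, limma-voom (limma 3.58.1), 4 other scalings, no filter, a stricter filter, a replicate block, each library left out, and other denominators and member sets. The length of the principal transcript, and the shares and counts without Rps2, were added after seeing the data. B cell genes (4.81 to 6.31 CPM in sum) and red cell genes (0.277 to 0.938 CPM) were checked as other cell types.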

Additional observations from a re-analysis of the deposited data

How the results depend on the processing

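The number of members called higher stayed within 1.5 times of 27 in every setting that kept all libraries. The number called lower was 1 by DESeq2 and 4 with library totals alone. With 1 library left out, 17 to 29 members were called higher, 0 to 6 lower (6 without control replicate 1, 0 without control replicate 2, 1 without control replicate 3), and 6 to 10 of the small subunit and 13 to 21 of the large (17 called higher, and 6 of the small subunit, without IL-33 replicate 2; 7 of the small without IL-33 replicate 1). The share of counts on the members was 5.39% and 5.61% (control and IL-33) over protein-coding counts, 5.58% with IL-33 over counts without the mitochondrial genome, 5.49% and 5.71% with the copies added and 5.10% and 5.27% without Rps2; it ran from 5.20% to 5.31% and from 5.42% to 5.51% with 1 library of the group left out. The ratio of large to small subunit by medians per kb was 1.14 in both groups, and with 1 library left out the ratio of sums ran from 1.282 to 1.288 and from 1.299 to 1.301. Of the 84 members tested, 60 kept 1 direction in every setting. Among the members named by the rule, small changes turned direction for Rps15 (-0.0016 with library totals alone) and Rpl10 (-6.3e-05 by DESeq2, -0.017 with library totals alone), and with 1 library left out for Rps15 (-0.016 to 0.049), Rpl10 (-0.016 to 0.024), Rpl13a (-0.034 to 0.18), Rpl36al (-0.041 to 0.22), Rpl39l (-1.07 to 0.14), Rpl24 (-0.41 to 0.19), Rpl7l1 (-0.037 to 0.010) and Rplp2 (-0.058 to 0.0063); none of these was called, and the causes were not tested. Rps27rt was not called by DESeq2, and Rps3a1 was called with library totals alone; Rpl41 was called by limma-voom and with no filter. Same-numbered libraries did not deviate together over all genes (r = 0.0088, -0.0049 and 0.012). Over the members these r were -0.62, 0.080 and -0.54, and the highest of any pair was 0.70, for control replicate 3 and IL-33 replicate 1. Such values cannot settle whether the samples were paired by mouse or culture, which the sources do not say. With the replicate block 23 members were called higher and 2 lower, and the call of Rpl7 was lost (0.06, adjusted p = 0.0964). Members with few counts, such as Rpl24, limit what a change could show.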
